A study of Mus musculus with 8 samples.

Results

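Death receptors and related members of the tumour necrosis factor (TNF) family were described in mouse liver through 10 genes: the death domain receptors Fas, Tnfrsf1a, Tnfrsf10b and Tnfrsf21, the receptors Tnfrsf1b, Ltbr, Tnfrsf12a and Cd40, which bind TRAF adaptors without a death domain, and the ligands Tnf and Tnfsf10. They were found by their GENCODE M21 symbols among the 55335 genes of the count table, and all 10 were present and passed the filter on low counts that left 15234 genes. Liver RNA came from 8 female mice on the NIAAA chronic-plus-binge ethanol model, a liquid ethanol diet ended by a gavage of ethanol. The Ripk1-hepKO group (mice 28, 34, 37 and 39) is labelled as lacking Ripk1 in hepatocytes, and the Ripk1-Con group (mice 29, 32, 40 and 41) as its controls. Ethanol was common to both groups, so the comparison of genotypes says nothing of ethanol itself. As labelled, the deletion is restricted to hepatocytes and other liver cells keep the gene, while Cre driver, strain and age are not stated in the labels.

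Ligands of the TNF family are mostly made as membrane proteins that act as trimers, and their receptors signal by gathering adaptors on the inner side of the membrane. Receptors with a death domain can recruit FADD and caspase-8 and so start apoptosis, or TRADD, RIPK1 and TRAF proteins and so activate NF-kB. RIPK1 is the scaffold that links the TNF receptor to NF-kB and, when that arm fails, to cell death, and hepatocytes are known to be sensitive to signals from FAS.

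Totals ran from 36045339 to 59481293 counts in Ripk1-hepKO and from 28038390 to 67328158 counts in Ripk1-Con libraries. One count was worth 0.0162 to 0.0332 CPM (counts relative to library size, with TMM factors), so Tnfrsf10b, Tnf and Cd40, with 2 to 53 counts per library, were measured near the floor. The tool that made the counts is not named, and if it was StringTie they were derived from coverage, so that 1 count need not be 1 read. Ripk1 did not separate the labels, at 38.1, 35.8, 33.1 and 23.1 CPM in Ripk1-hepKO and 34.3, 53.6, 27.8 and 34.2 CPM in Ripk1-Con; a count per gene does not show the loss of single exons. Mice 28 and 40 had been set apart from the other libraries by earlier results of these data, and results are therefore also given without them. The hepatocyte marker albumin was abundant in every library, at 48465 to 68917 CPM in Ripk1-hepKO and 74428 to 90592 CPM in Ripk1-Con, with no overlap of the groups, as for 4.10% of all genes (edgeR adjusted p = 0.742). Of the 7 hepatocyte markers matched, 6 had a log2 difference below 0, from -0.43 for albumin and -0.22 for Ttr, the other marker without overlap, to -0.05 for Hnf4a, while Fgb stood at 0.35, and 0 passed the FDR. In bulk liver, fewer cells of a type and less RNA per cell cannot be told apart.

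The start regions of 4 members are shown because Tnfrsf21, Ltbr and Tnfrsf1b later proved to vary together across the mice while Fas was the 1 member with a fold change below 0. Each is the 250 bases before the RefSeq start of the gene on GRCm38.p6, read 5′ to 3′ on the strand of the gene. Capitals mark matches to the NF-kB motif, which is GGG, any 5 bases and CC, on either strand, with overlapping matches joined.
Tnfrsf21, chr17:43016305-43016554, plus strand: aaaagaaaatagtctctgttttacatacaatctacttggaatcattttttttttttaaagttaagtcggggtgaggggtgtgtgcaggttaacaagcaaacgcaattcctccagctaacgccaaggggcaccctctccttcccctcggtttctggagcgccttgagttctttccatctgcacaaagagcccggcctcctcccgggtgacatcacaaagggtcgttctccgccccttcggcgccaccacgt
Ltbr, chr6:125313886-125314135, minus strand: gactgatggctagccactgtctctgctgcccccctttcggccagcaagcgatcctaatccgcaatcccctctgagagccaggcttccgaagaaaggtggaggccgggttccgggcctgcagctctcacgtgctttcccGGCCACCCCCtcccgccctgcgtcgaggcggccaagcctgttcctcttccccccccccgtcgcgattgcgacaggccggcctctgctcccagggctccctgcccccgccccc
Tnfrsf1b, chr4:145246871-145247120, minus strand: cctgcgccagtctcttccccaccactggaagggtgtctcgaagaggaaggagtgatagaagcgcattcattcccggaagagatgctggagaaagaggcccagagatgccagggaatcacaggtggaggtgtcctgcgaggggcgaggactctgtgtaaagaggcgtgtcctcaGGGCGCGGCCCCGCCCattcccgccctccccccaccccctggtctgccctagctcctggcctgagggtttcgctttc
Fas, chr19:34290409-34290658, plus strand: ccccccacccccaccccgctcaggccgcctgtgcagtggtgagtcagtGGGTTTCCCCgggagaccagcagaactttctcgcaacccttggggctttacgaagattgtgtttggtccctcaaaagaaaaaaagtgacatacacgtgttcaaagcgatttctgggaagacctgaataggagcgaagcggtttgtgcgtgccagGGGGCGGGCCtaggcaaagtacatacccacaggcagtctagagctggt
The motif occurred in 6 of the 8 members with a RefSeq start region, and it was in 45.8% of all 32851 such regions of the same length. Tnfrsf21 and Tnfsf10 had no match in the window. Cd40 and Tnfrsf10b had no entry.

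None of the 10 genes differed between the genotypes past the threshold. By edgeR's quasi-likelihood test with Benjamini-Hochberg adjustment over all genes, 0 of 10 members passed an FDR of 0.05 (adjusted p of 0.762 to 0.996), as did 0% of the 15234 genes tested (lowest adjusted p = 0.742). At an unadjusted p under 0.05 stood 0 of 10 members, against 6.68% of all genes (3.86% higher and 2.82% lower in Ripk1-hepKO). The DESeq2 Wald test called 0 members, against 0.0963% of the genes it adjusted. The 2 groups overlapped for all 10 members, while they did not overlap for 4.10% of all genes (2.01% higher and 2.09% lower in Ripk1-hepKO). The fold change was above 0 for 9 of 10 members, against 51.8% of all genes, and the median log2 fold change was 0.28 over the members and 0.01 over all genes. That count was 7 of 10 without mouse 28, with a median of 0.08, and 4 of 10 without mice 28 and 40, with a median of -0.06. It was also 7 of 10 without mouse 39 or mouse 32, with medians of 0.37 and 0.31. Without mouse 40 alone it was 8 of 10, with a median of 0.19. For Tnfrsf1a, Ltbr and Tnfrsf21, Ripk1-hepKO mouse 28 was the highest and Ripk1-Con mouse 40 the lowest of all mice. Leaving both out therefore lowers the fold changes of these genes by construction. The cause of the upward lean was not tested.

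**Figure D1:**
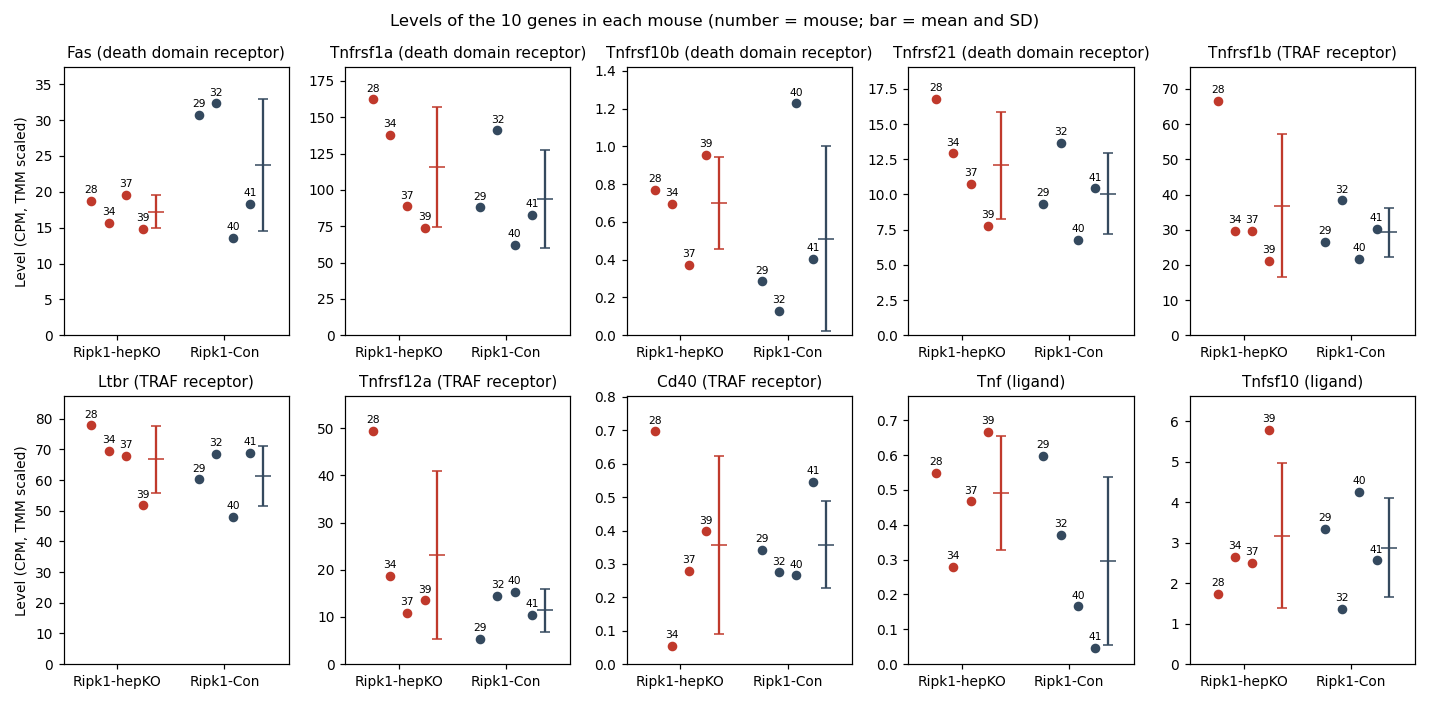
Level of each of the 10 genes (CPM, linear axis from 0) in every mouse, Ripk1-hepKO left of Ripk1-Con; numbers are mice, bars are the mean and SD of 4 mice. Mouse 28 holds the highest value of Tnfrsf1a, Tnfrsf21, Tnfrsf1b, Ltbr, Tnfrsf12a and Cd40, and the groups overlap for every gene.

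Among the death domain receptors, Fas was the 1 gene with a lower mean in Ripk1-hepKO. Fas (ENSMUSG00000024778, chr19:34290666-34327772, plus strand, GRCm38), the receptor of FAS ligand and a direct trigger of caspase-8, stood at 18.8, 15.7, 19.6 and 14.9 CPM in Ripk1-hepKO mice 28, 34, 37 and 39, against 30.7, 32.3, 13.55 and 18.3 CPM in Ripk1-Con mice 29, 32, 40 and 41. All Ripk1-hepKO mice lay close together, and the control group split into a pair of high mice, 29 and 32, and a pair at the level of Ripk1-hepKO. Fas averaged 17.2 ± 2.30 CPM in Ripk1-hepKO and 23.7 ± 9.24 CPM in Ripk1-Con (SD, 4 mice each). On the log2 scale the difference was -0.46 ± 0.26 (SE), with an edgeR adjusted p of 0.770, and the 95% interval of the ratio ran from 0.480 to 1.098. Fas kept a fold change below 0 in all 17 alternatives, between -0.70 without mice 28 and 40 and -0.28 without mouse 32.

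Tnfrsf1a (ENSMUSG00000030341, chr6:125349362-125362484, plus strand), which encodes the main TNF receptor and the one whose complex RIPK1 scaffolds, stood at 162, 138, 88.7 and 73.95 CPM in Ripk1-hepKO, against 87.99, 141, 62.0 and 82.8 CPM in Ripk1-Con, in the same order of mice. Ripk1-hepKO mice 28 and 34 and Ripk1-Con mouse 32 formed a high set, and the remaining 5 mice, of either genotype, lay below them. The log2 difference was 0.31 ± 0.31 (SE, edgeR adjusted p of 0.851), and the 95% interval of the ratio ran from 0.768 to 1.99. Leaving out mouse 28 gave 0.099, mouse 32 gave 0.58, and mice 28 and 40 together gave -0.055. Tnfrsf21 (ENSMUSG00000023915, chr17:43016555-43089189, plus strand), the receptor also called death receptor 6, stood at 16.8, 12.9, 10.8 and 7.76 CPM in Ripk1-hepKO, against 9.33, 13.7, 6.77 and 10.4 CPM in Ripk1-Con. It ranked mice 28, 32 and 34 highest and mouse 40 lowest, as Tnfrsf1a did, with a log2 difference of 0.26 ± 0.27 (SE, edgeR adjusted p of 0.860) that was 0.053 without mouse 28 and 0.45 without mouse 32.

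Tnfrsf10b (ENSMUSG00000022074, chr14:69767472-69784411, plus strand) encodes the death receptor for TRAIL in the mouse, and in human cells it is induced by the stress factor CHOP. It was scarce, with 42, 25, 16 and 53 counts in Ripk1-hepKO mice 28, 34, 37 and 39, against 10, 8, 37 and 17 counts in Ripk1-Con mice 29, 32, 40 and 41. Those counts gave 0.770, 0.697, 0.374 and 0.957 CPM in Ripk1-hepKO, against 0.285, 0.129, 1.23 and 0.404 CPM in Ripk1-Con. Control mouse 40 held the highest level of all 8 mice. The other 3 controls lay below Ripk1-hepKO mice 28, 34 and 39, and controls 29 and 32 also lay below mouse 37. The log2 difference was 0.50 ± 0.63 (SE, edgeR adjusted p of 0.889), and it was 1.39 without mouse 40 (edgeR adjusted p = 0.618) and 0.15 without mouse 32.

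Of the receptors that act through TRAF proteins, Tnfrsf12a had the largest fold change of the 10 members in the fit of all 8 mice, a rank it lost without mouse 28, 29 or 40 and with voom. Tnfrsf12a (ENSMUSG00000023905, chr17:23675445-23677468, minus strand), the receptor of TWEAK, is a short receptor known to be induced in injured and regenerating liver. It stood at 49.4, 18.7, 10.9 and 13.6 CPM in Ripk1-hepKO, against 5.33, 14.5, 15.4 and 10.5 CPM in Ripk1-Con. Mouse 28 stood far above all others, Ripk1-Con mouse 29 lowest, and the other 6 mice mingled. Tnfrsf12a averaged 23.1 ± 17.8 CPM in Ripk1-hepKO and 11.4 ± 4.57 CPM in Ripk1-Con (SD, 4 mice each). The log2 difference of 1.02 ± 0.51 (SE) had an edgeR adjusted p of 0.762 (unadjusted p = 0.0766), and the 95% interval of the ratio ran from 0.911 to 4.51. Without mouse 28 the log2 fold change was 0.33 (edgeR adjusted p = 0.967), rank 6 by size, and that of Tnf was the largest at 0.68.

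Tnfrsf1b (ENSMUSG00000028599, chr4:145213463-145246870, minus strand), the TNF receptor most abundant on immune and endothelial cells, stood at 66.7, 29.8, 29.7 and 21.1 CPM in Ripk1-hepKO, against 26.6, 38.3, 21.8 and 30.2 CPM in Ripk1-Con. Only mouse 28 lay outside the range of the controls on the high side, and the log2 difference of 0.33 ± 0.34 (SE, edgeR adjusted p of 0.859) was -0.12 without it. The monocyte and macrophage markers (8 of 8 counted in all libraries) summed to 124 CPM in mouse 28, 65.9 to 86.5 CPM in the other Ripk1-hepKO mice and 36.96 to 104 CPM in Ripk1-Con. Lyz2 alone gave 81.65 CPM of the sum in mouse 28 and 80.02 CPM of the 104 CPM in mouse 32. The part of these markers in the Tnfrsf1b level was not tested.

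Ltbr (ENSMUSG00000030339, chr6:125306571-125313885, minus strand), the lymphotoxin beta receptor, which drives the alternative NF-kB pathway, was the steadiest member, with a 1.62-fold span between the highest and lowest mouse. It stood at 77.8, 69.6, 67.8 and 51.8 CPM in Ripk1-hepKO, against 60.3, 68.6, 48.1 and 68.8 CPM in Ripk1-Con, so the groups covered nearly the same range. The log2 difference was 0.12 ± 0.16 (SE, edgeR adjusted p of 0.896), and its 95% interval as a ratio, 0.850 to 1.39, was the narrowest of the 10. It ranged from 0.027 without mouse 40 to 0.23 without mouse 39, and was -0.064 without mice 28 and 40. Cd40 (ENSMUSG00000017652, chr2:165055627-165072948, plus strand), a receptor of antigen-presenting cells, had 38, 2, 12 and 22 counts in Ripk1-hepKO, against 12, 17, 8 and 23 counts in Ripk1-Con. Cd40 averaged 0.357 ± 0.267 CPM in Ripk1-hepKO and 0.357 ± 0.130 CPM in Ripk1-Con (SD, 4 mice each). No difference was detected, with an interval of the ratio from 0.403 to 2.59. The parts of low counts and of variation between mice in that width were not tested.

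The ligands were both low. Tnf (ENSMUSG00000024401, chr17:35199381-35202007, minus strand), a product chiefly of macrophages, had 30, 10, 20 and 37 counts in Ripk1-hepKO, against 21, 23, 5 and 2 counts in Ripk1-Con, and its low end was set by control mice 40 and 41. The log2 difference was 0.73 ± 0.62 (SE, edgeR adjusted p of 0.827), with an interval of the ratio from 0.632 to 4.36. It was 1.28 without mouse 29 and 0.37 without mouse 41. Tnfsf10 (ENSMUSG00000039304, chr3:27317028-27342427, plus strand), which encodes TRAIL, stood at 1.74, 2.65, 2.499 and 5.79 CPM in Ripk1-hepKO, against 3.34, 1.37, 4.25 and 2.57 CPM in Ripk1-Con. Mouse 39 was the highest and mice 28 and 32 the lowest, while mouse 28 was the highest for Tnfrsf1a. Its log2 difference of 0.15 ± 0.43 (SE, edgeR adjusted p of 0.956) was -0.32 without mouse 39 and -0.09 without mouse 32.

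**Figure D2:**
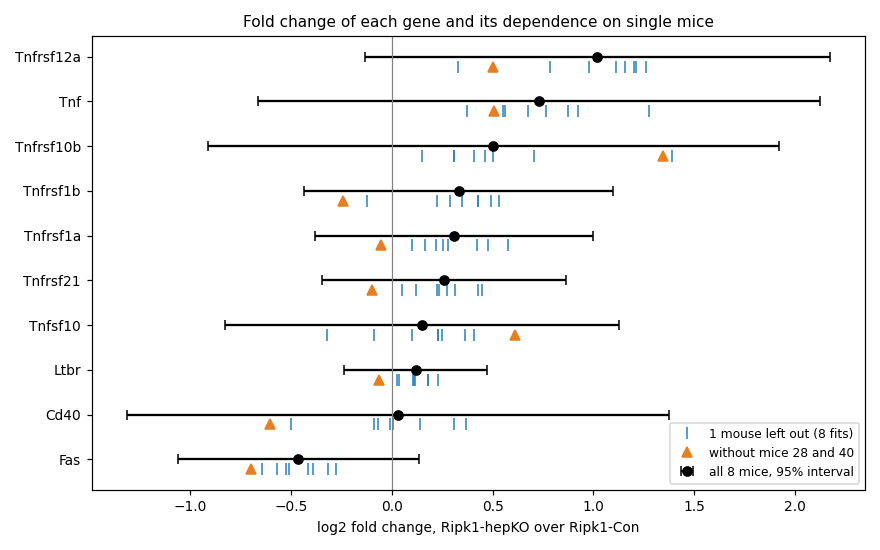
Log2 fold change of each gene, Ripk1-hepKO over Ripk1-Con: black points and bars are the fit of all 8 mice with its 95% interval, blue ticks the 8 fits with 1 mouse left out, orange triangles the fit without mice 28 and 40. Every interval includes 0, and the triangles of Tnfrsf1a, Tnfrsf1b, Tnfrsf21, Ltbr and Cd40 lie left of 0 while the points of the fit of all 8 mice lie right of it.

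Levels were compared between genes per length of their annotated exons, as CPM per kb. Tnfrsf1a led, at 44.7 ± 16.0 CPM per kb in Ripk1-hepKO and 36.1 ± 13 CPM per kb in Ripk1-Con, and it exceeded Ltbr in 8 of 8 mice. Ltbr, at 28.4 ± 4.64 and 26.1 ± 4.15 CPM per kb, exceeded Fas in 8 of 8 mice. Fas (8.36 ± 1.12 in Ripk1-hepKO and 11.5 ± 4.48 in Ripk1-Con), Tnfrsf12a (11.96 ± 9.21 and 5.91 ± 2.37) and Tnfrsf1b (9.64 ± 5.33 and 7.66 ± 1.83 CPM per kb) could not be ordered, since each neighbour was the higher in some mice. Tnfrsf21, at 2.93 ± 0.924 and 2.45 ± 0.698 CPM per kb, lay below Tnfrsf1b and above Tnfsf10 in 8 of 8 mice.

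The lowest 4 were Tnfsf10, with a mean of 0.575 CPM per kb over the 8 mice, Tnf with 0.240, Tnfrsf10b with 0.111 and Cd40 with 0.105, and each overlapped its neighbour in that order. The receptor for TRAIL was thus far scarcer per length than the TNF receptor Tnfrsf1a and than Fas. By summed level per length, the 4 death domain receptors made up 52.5 ± 3.34% of the 10 genes in Ripk1-hepKO and 54.4 ± 6.24% in Ripk1-Con. The ligands made up 0.981 ± 0.725% in Ripk1-hepKO and 0.872 ± 0.445% in the livers of Ripk1-Con (SD, 4 mice each).

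**Figure D3:**
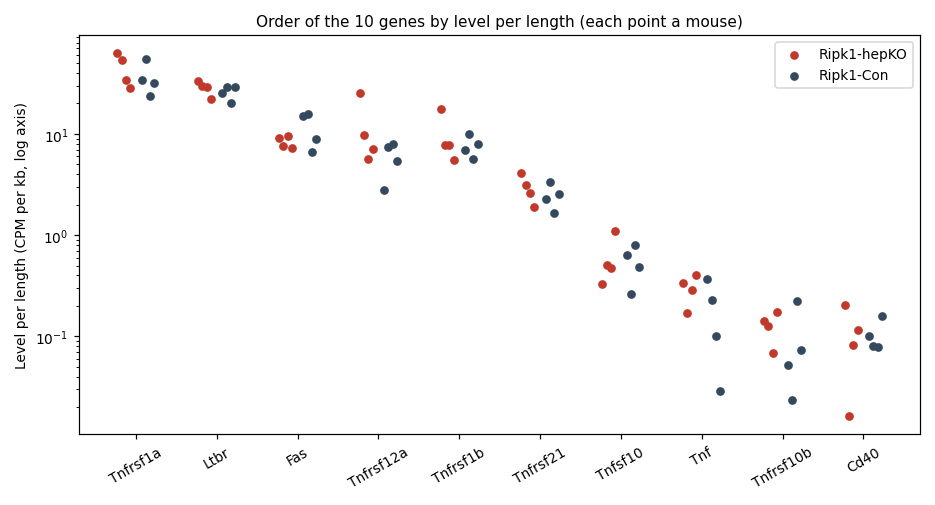
Level per length (CPM per kb of annotated exon, log axis) of the 10 genes ordered by their mean over all mice; each point is a mouse, Ripk1-hepKO left of Ripk1-Con. The genes span from a mean of 40.4 CPM per kb for Tnfrsf1a to 0.105 for Cd40.

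Levels also varied between mice of the same genotype, and several members varied together. Pearson's r and Spearman's rho of log2(CPM + 1) were computed over the 8 mice for the 45 pairs of members, each with an exact two-sided permutation p over the 40320 orders of the mice, adjusted over the 45 pairs. Adjusted p was under 0.05 for 9 pairs by r, for 7 by rho and for 6 by both. The 6 joined Tnfrsf21 with Tnfrsf1a, Ltbr, Tnfrsf1b and Tnfsf10, Tnfrsf1b with Ltbr, and Fas with Tnfrsf10b.

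Tnfrsf21 took part in 4 of these 6 pairs. With Tnfrsf1a its r was 0.96 (exact permutation adjusted p = 0.00446) and its rho 0.98 (adjusted p = 0.0179), and over the 6 mice nearest the median r was 0.92. Tnfrsf1a has a gap between 3 high mice and the other 5, and no r is given within sets of under 6 mice. With Ltbr the r of Tnfrsf21 was 0.94 (exact permutation adjusted p = 0.00446; rho 0.88, adjusted p = 0.0466), and 0.88 with mice 39 and 40 left out. With Tnfrsf1b it was 0.91 (exact permutation adjusted p = 0.00484; rho 0.90, adjusted p = 0.0466), and 0.92 with mice 28 and 39 left out. Taken on deviations from the mean of each genotype, the 3 values were 0.96, 0.94 and 0.91.

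Tnfsf10 had a negative r with each of these receptors, and only its pair with Tnfrsf21 passed by both measures. Its r with Tnfrsf21 was -0.88 (exact permutation adjusted p = 0.0402; rho -0.88, adjusted p = 0.0466), and -0.95 without mice 32 and 39. With Tnfrsf1b its r of -0.81 did not pass (exact permutation adjusted p = 0.0565), whereas its rho of -0.90 did (adjusted p = 0.0466), and r was -0.99 without mice 28 and 39. With Ltbr its r of -0.86 passed (exact permutation adjusted p = 0.0444) and its rho of -0.69 did not (adjusted p = 0.260). With Tnfrsf1a neither its r of -0.80 (exact permutation adjusted p = 0.0705) nor its rho of -0.83 (adjusted p = 0.0769) passed. Between Tnfsf10 and its receptor gene Tnfrsf10b the r was 0.63 (exact permutation adjusted p = 0.316).

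Fas and Tnfrsf10b, the receptors of the 2 ligands best known for killing cells directly, lay in opposite order across the mice. Their r was -0.89 (exact permutation adjusted p = 0.0185) and rho -0.93 (adjusted p = 0.0466). Ripk1-Con mice 29 and 32 had the most Fas and the least Tnfrsf10b, and mouse 40 the least Fas and the most Tnfrsf10b. Tnfrsf10b was measured near the floor, with 10 and 8 counts in mice 29 and 32 and 37 counts in mouse 40. Without mice 29 and 32, r was -0.86 over the other 6 mice, and on deviations from genotype means it was -0.88. Tnfrsf12a, Tnf and Cd40 joined no pair that passed, and the r of 0.70 between Tnfrsf12a and Tnfrsf1b was 0.02 without mouse 28.

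**Figure D4:**
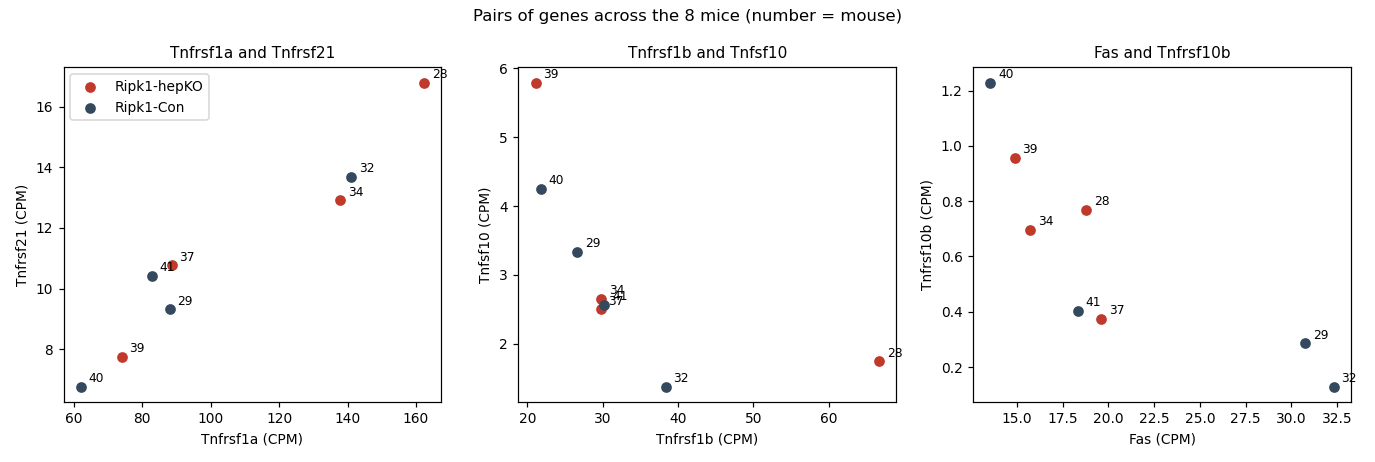
Levels (CPM) of 3 pairs of genes in the 8 mice, Ripk1-hepKO red and Ripk1-Con dark; numbers are mice. Tnfrsf1a and Tnfrsf21 rise together, Tnfsf10 falls as Tnfrsf1b rises, and the genotypes are mixed along both trends. Tnfrsf10b falls as Fas rises, with Ripk1-Con mice 29, 32 and 40 at the ends and the Ripk1-hepKO mice between them.

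Marker lists of several liver cell types varied with some of the same genes. Over 100 pairs of a member and a marker list (mean log2(CPM + 1) per mouse), adjusted p was under 0.05 for 5 pairs by r and for 0 by rho. The 5 were Tnfrsf21 with neutrophil markers (r = 0.93, exact permutation adjusted p = 0.0364) and with monocyte and macrophage markers (r = 0.92, adjusted p = 0.0382), Ltbr with both lists (0.92 and 0.90, exact permutation adjusted p = 0.0364 and 0.0382), and Tnfrsf1b with monocyte and macrophage markers (0.92, adjusted p = 0.0364). Their rho lay between 0.71 and 0.90, with adjusted p of 0.0913 to 0.239. Without mice 28 and 40 these r were 0.83, 0.74, 0.77, 0.75 and 0.81.

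Neutrophil markers summed to 9.91 to 47.6 CPM in Ripk1-hepKO and 3.62 to 30.7 CPM in Ripk1-Con, with 4 of 6 counted in every library and Ly6g at 0 in mice 39, 40 and 41. Kupffer cell markers, 9 of 9 counted in every library, summed to 248 to 380 CPM in Ripk1-hepKO and 97.2 to 410.5 CPM in Ripk1-Con. Sinusoidal endothelial markers, 6 of 6, summed to 145 to 243 CPM in Ripk1-hepKO and 106 to 207 CPM in Ripk1-Con, and Tnfsf10 had an r of 0.88 with them that did not pass (exact permutation adjusted p = 0.0631; rho 0.90, adjusted p = 0.0913). Sequencing depth had an r of 0.66 with Tnfrsf21, 0.65 with Tnfrsf1b and 0.64 with Tnfrsf1a, and no member passed with depth (exact permutation adjusted p of 0.302 to 0.345). Over the 6 mice nearest the median of each gene, these r were 0.23, 0.96 and 0.12. The part of cell content or depth in the shared pattern was not tested.

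**Figure D5:**
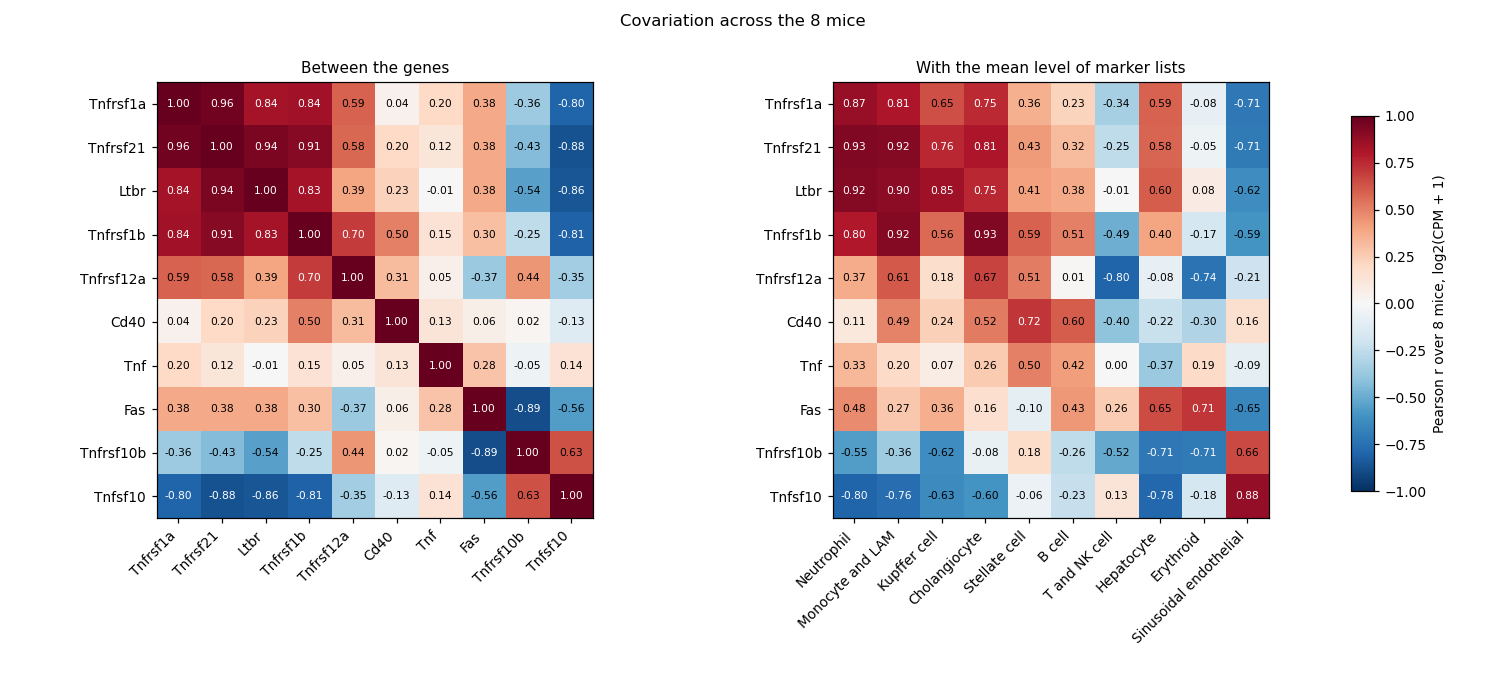
Pearson r over the 8 mice of log2(CPM + 1), between the genes (left) and with the mean level of marker lists (right; LAM, lipid-associated macrophage); red is positive and blue negative. Tnfrsf1a, Tnfrsf21, Ltbr and Tnfrsf1b form a block of r between 0.83 and 0.96, and Tnfsf10 is negative with each of them.

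The tested genes most alike to each member were taken from 12513 genes of at least 1 CPM, as a description of these 8 mice with no test. For Tnfrsf1a they were Tifa (r = 0.99) and Alpk1 (0.98), an adaptor and a kinase that sense a bacterial sugar, and for Tnfrsf21 Ptpn1 and Mt2, a metallothionein (0.98 each). For Tnfrsf1b they were Vmp1 (0.99), which acts in autophagy, and the transcription factor gene Fosl2 (0.98), and for Ltbr the immunoglobulin receptor gene Fcgr3 and Ttyh3 (0.97 each). Tnfrsf10b was most like Pes1, a ribosome assembly factor, and Trib3, a stress-induced pseudokinase (0.99 each). Fas was most like Acadsb, an acyl-CoA dehydrogenase (0.99), and St6galnac6 (0.96), and Tnfrsf12a most like Ncdn and Traf7 (0.98 each). Tnfsf10 was most like Tfap4 (0.98) and Stn1 (0.97), Tnf like Trim47 (0.95) and Psmb1 (0.94), and Cd40 like Ccdc71l (0.96) and Ehd2 (0.95).

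The partners of the members gave no call either. Of the direct ligands, Tnfsf12, which encodes TWEAK and so pairs with Tnfrsf12a, stood at 13.7, 12.2, 8.99 and 11.1 CPM in Ripk1-hepKO, against 8.04, 9.30, 8.57 and 9.24 CPM in Ripk1-Con. Only mouse 37 fell within the control range, and the log2 fold change of 0.39 ± 0.15 (SE) had an edgeR adjusted p of 0.742. Fasl, the ligand of Fas, had 2 to 9 counts in Ripk1-hepKO and 2 to 11 counts in Ripk1-Con and did not pass the filter. Lta had 2 counts in mouse 37 and 0 in the other 7 mice, and Cd40lg had 0 to 4 counts in each group. Ltb and Tnfsf14, ligands of Ltbr, were also low. Ltb averaged 0.356 ± 0.188 CPM in Ripk1-hepKO and 0.519 ± 0.229 CPM in Ripk1-Con, and Tnfsf14 averaged 0.761 ± 0.412 CPM in Ripk1-hepKO and 0.666 ± 0.220 CPM in Ripk1-Con (SD, 4 mice each).

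Of 20 other receptors of the family, 12 were tested, 0 passed the FDR and 1 had an unadjusted p under 0.05, near the 6.68% of all genes. Leaving out mouse 28 made the count 0, mouse 29 made it 2 and mouse 37 made it 3. The gene was Tnfrsf23, a decoy receptor for TRAIL in the mouse, at 4.56, 2.84, 1.19 and 3.07 CPM in Ripk1-hepKO, against 1.54, 1.16, 1.06 and 1.83 CPM in Ripk1-Con. The log2 difference was 1.06 ± 0.38 (SE, edgeR adjusted p of 0.742). Mouse 37 lay within the controls and the other 3 above them. Its neighbour and close relative Tnfrsf22, also a decoy, stood at 1.28 ± 0.427 CPM in Ripk1-hepKO and 0.716 ± 0.283 CPM in Ripk1-Con, and the split of reads between such relatives is uncertain.

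Of 16 other ligands, 6 were tested, 0 passed and 2 had an unadjusted p under 0.05, against 6.68% of all genes, and without mouse 28, 29 or 40 it was 1, and without mouse 34 it was 0. They were Tnfsf12 and Eda, the ectodysplasin gene (2.51 ± 0.711 CPM in Ripk1-hepKO and 1.43 ± 0.399 CPM in Ripk1-Con; edgeR adjusted p = 0.742). Of the 13 adaptors and proximal effectors, 0 passed the FDR. At an unadjusted p under 0.05 stood 3, all higher in Ripk1-hepKO, against 3.86% of all genes in that direction. With 1 mouse left out that count ran from 1 (without mouse 29 or 39) to 4 (without mouse 37). Without mice 28 and 40, 2 were higher and 1 was lower. Birc3, an inhibitor of apoptosis in the TNF receptor complex, stood at 17.7, 10.98, 11.3 and 13.3 CPM in Ripk1-hepKO, against 7.27, 9.49, 7.34 and 9.14 CPM in Ripk1-Con. Traf2, the adaptor that brings it there, stood at 10.16, 10.15, 10.04 and 13.1 CPM in Ripk1-hepKO, against 7.82, 8.71, 9.10 and 7.77 CPM in Ripk1-Con. The groups did not overlap for either gene, as for 2.01% of all genes with Ripk1-hepKO the higher group, and both had an edgeR adjusted p of 0.742. The remaining gene was Traf3, at 14.4 ± 2.36 CPM in Ripk1-hepKO and 11.1 ± 0.534 CPM in Ripk1-Con, named after its values were seen. Of 5 genes of the shedding of ligands and receptors, 5 had a fold change above 0, against 51.8% of all genes, and 2 of 5 did without mice 28 and 40. Of the 5, 0 had an unadjusted p under 0.05. The shedding inhibitor Timp3 stood at 36.2 ± 5.67 CPM in Ripk1-hepKO and 27.9 ± 6.79 CPM in Ripk1-Con. Rhbdf1, also of this list, stood at 7.51 ± 1.78 CPM in Ripk1-hepKO and 5.50 ± 1.40 CPM in Ripk1-Con.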

How the data were processed

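Liver RNA of 8 mice was sequenced from poly(A)-selected, strand-specific libraries, per the labels' protocols. The authors deposited whole-number counts per Ensembl gene, not normalized. STAR 2.5.2b, FastQC 0.11.5, DESeq2 1.38.1, StringTie 2.2.1 and the build GRCm38.p6 appear in the submitters' processing notes with no role or order. Which tool counted, and with what strand setting, is not given in the sources used here, so counts may have been derived from coverage. GENCODE M21 matched 55154 of 55335 gene IDs. No member shares exon bases with another annotated gene.

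Genotypes were compared with edgeR 4.0.16 under R 4.3.3 (filterByExpr, TMM, robust quasi-likelihood fit of genotype, Benjamini-Hochberg over 15234 genes, FDR 0.05), a test checked on simulated counts. CPM values are TMM scaled. Standard errors come from the quasi-likelihood F. Alternatives used limma 3.58.1 and DESeq2 1.42.0. Correlations used log2(CPM + 1), and the smallest p their permutations allow is 2.48e-05. Start regions came from RefSeq on GRCm38.p6. Members and gene lists were chosen with earlier results of these data known. The rule for named genes takes all 10 members, their direct ligands, the 2 genes of smallest p in each pathway list and the 2 genes most alike to each member. Of the 8 hepatocyte markers, 7 matched the table. Each mouse is an independent animal, and counting precision covers counting error only.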

Additional observations from a re-analysis of the deposited data

Results flagged for a closer look

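Gaps within groups of 4 mice were checked for 68 sets of values, and chance marks about 1 in 20 such sets; 5 held a mouse far from the other 3. None of the 5 concerned a level of the 10 genes themselves. Traf2 stood at 13.1 CPM in Ripk1-hepKO mouse 39, above 10.04 to 10.16 CPM in the other 3. Eda stood at 2.03 CPM in Ripk1-Con mouse 40, above 1.20 to 1.28 CPM in the other 3. The sum of sinusoidal endothelial markers was 243 CPM in Ripk1-hepKO mouse 39, which also had the most Tnfsf10. Lta stood at 0.0467 CPM in Ripk1-hepKO mouse 37 and Cd40lg at 0.114 CPM in Ripk1-Con mouse 29, each resting on 2 to 4 counts.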

How the results depend on the processing

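No paired analysis was possible because no mouse number occurs in both groups. The count of genes past the FDR was 0 in each edgeR and voom fit and with any mouse left out (0 to 0), and 15 with the DESeq2 Wald test; 0 of the members passed in any alternative. The median log2 fold change of the members lay between 0.076 and 0.37 with 1 mouse left out, the lowest without mouse 28, and was -0.060 without mice 28 and 40. In that last fit Tnfrsf1a turned to -0.055, Tnfrsf1b to -0.24, Ltbr to -0.064, Tnfrsf21 to -0.10 and Cd40 to -0.60. It leaves out the highest Ripk1-hepKO mouse and the lowest control of Tnfrsf1a, Ltbr and Tnfrsf21. Tnfrsf1b also turned without mouse 28 (-0.12) and with voom quality weights (-0.063), and ranged to 0.53 with 1 mouse left out. Tnfsf10 turned without mouse 39 (-0.32) or 32 (-0.09), and ranged to 0.41 with 1 mouse left out. Cd40 turned without mouse 28 (-0.50), 39 (-0.01), 32 (-0.09) or 40 (-0.07), with voom (-0.24) and with its quality weights (-0.88). The cause was not tested. An unadjusted p under 0.05 appeared for Fas and Tnfrsf10b without mouse 40 and without mice 28 and 40, and for Tnfrsf12a without mouse 37 and with DESeq2. Fas, Tnfrsf10b, Tnf and Tnfrsf12a kept their direction in every alternative that tested them. With 1 CPM required in 4 libraries, Tnfrsf10b, Tnf and Cd40 were not tested. Per length of the longest transcript, Tnfrsf12a ranked above Fas. Counts of the pathway lists with mice left out were added after the data were seen. Depth limits Tnfrsf10b, Tnf and Cd40 most.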

Other observations

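The genes most alike to Tnfrsf1a spanned a wider range of levels than Tnfrsf1a itself. Tifa stood at 226, 63.2, 22.4 and 11.2 CPM in Ripk1-hepKO mice 28, 34, 37 and 39, against 20.8, 96.1, 6.08 and 14.8 CPM in Ripk1-Con mice 29, 32, 40 and 41. Alpk1, the kinase that acts upstream of TIFA, stood at 48.8, 26.1, 9.04 and 3.56 CPM in Ripk1-hepKO, against 4.82, 28.9, 2.99 and 5.37 CPM in Ripk1-Con. Mice 28, 32 and 34 were the 3 highest for both, and neither passed between the genotypes. Mt2 followed the same mice, at 1380, 735, 316 and 109 CPM in Ripk1-hepKO, against 238, 718, 121 and 262 CPM in Ripk1-Con. Trib3, alike to Tnfrsf10b, stood at 15.4, 12.1, 3.48 and 14.6 CPM in Ripk1-hepKO, against 2.68, 1.28, 28.3 and 5.11 CPM in Ripk1-Con, with Ripk1-Con mouse 40 the highest.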
